A study of Mus musculus with 8 samples.

Results

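MHC class I molecules show peptides from inside a cell at its surface, and the genes described here encode the molecule and the machinery that fills it. They are 10 of the 24568 mouse genes measured on the arrays: the light chain B2m, the heavy chains H2-K1, H2-D1 and H2-T23, the peptide transporter subunits Tap1 and Tap2, the loading chaperone Tapbp (tapasin), and the immunoproteasome subunits Psmb8, Psmb9 and Psmb10. All spots carrying one of these gene symbols in the platform annotation were taken, 17 spots in all. A gene with 2 spots was read from the brighter one, and the other spot is described separately.

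The proteasome cuts cytosolic proteins into peptides. Interferon exchanges 3 of its catalytic subunits for Psmb8, Psmb9 and Psmb10, and the TAP transporter, a pair of Tap1 and Tap2, carries the peptides into the endoplasmic reticulum. There tapasin holds an empty heavy chain with its light chain beside the transporter until a peptide fits, and the filled molecule goes to the surface, where CD8 T cells and natural killer cells read it. In the lung the epithelium is the surface that inhaled viruses reach first.

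Alveolar epithelial cells were isolated by FACS (fluorescence-activated cell sorting) from embryonic mouse lungs. Type I cells (AECI) form the thin gas exchange surface, and type II cells (AECII) make surfactant. Mutant lungs, in which Fgfr2b signalling had been inhibited in vivo from E16.5 to E18.5, were compared with WT lungs, in 4 groups: mutant AECI, WT AECI, mutant AECII and WT AECII. Each group had 2 arrays, which the submitters call biological replicates. The allele behind the inhibition, the strain, the sort markers and any pooling of embryos were not given in the sources used here. Nothing names an agent or treatment that WT lungs might share with mutant lungs.

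The signals are normalized log2 values with a median of 5.01 and a 75th percentile of 8.06 on each array, and a difference of 1 is a 2-fold change. Replicate arrays correlated across genes with r between 0.962 and 0.977. The labelled populations carried their markers: 9 of 11 AECI markers were higher in AECI than in AECII of mutant lungs and 10 of 11 in WT lungs, and 9 of 10 AECII markers were lower in both. Ciliated cell markers were also lower in AECI, 5 of 6 in mutant lungs and 6 of 6 in WT lungs. Their mean signal was 4.32 to 5.64 on the AECI arrays, against 9.45 to 10.48 on the AECII arrays. Club cell markers averaged 8.49 to 10.42 on the AECI arrays and 14.28 to 14.53 on the AECII arrays. AECII markers averaged 13.85 to 13.93 on the AECII arrays and still 11.01 to 12.06 on the AECI arrays. AECI markers averaged 12.62 to 12.85 on the AECI arrays and 8.81 to 10.41 on the AECII arrays. The share of other cells in each group was not tested. Every mutant array had low Xist and high Uty and every WT array the reverse (Xist averaged 4.32 in mutant AECI and 13.07 in WT AECI, and 4.35 in mutant AECII and 12.57 in WT AECII), so genotype and sex-linked expression cannot be told apart.

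The bases before the transcription start of 4 of these genes, in 3 stretches, are shown because B2m and H2-D1 encode the light chain and a heavy chain of the same molecule, and because Tap1 and Psmb9 start back to back, 225 bases apart, and share the stretch between them. The sequences are from RefSeq, assembly GRCm38.p6, 5′ to 3′. Capitals mark matches, on either strand, to the core letters bound by interferon regulatory factors (AANNGAAA, which reads TTTCNNTT on the other strand), to a kappaB motif, to the core of a cyclic AMP response element (TGACG, read as CGTCA on the other strand) and to the CCAAT box (on the other strand ATTGG). The B2m stretch is chr2:122147497-122147686, the H2-D1 stretch chr17:35262904-35263093 and the Tap1 to Psmb9 stretch chr17:34187331-34187555, each on the plus strand, which is the sense strand of B2m, H2-D1 and Tap1.
B2m: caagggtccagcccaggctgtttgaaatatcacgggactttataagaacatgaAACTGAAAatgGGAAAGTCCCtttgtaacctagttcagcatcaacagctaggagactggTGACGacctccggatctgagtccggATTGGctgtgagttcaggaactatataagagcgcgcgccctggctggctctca
H2-D1: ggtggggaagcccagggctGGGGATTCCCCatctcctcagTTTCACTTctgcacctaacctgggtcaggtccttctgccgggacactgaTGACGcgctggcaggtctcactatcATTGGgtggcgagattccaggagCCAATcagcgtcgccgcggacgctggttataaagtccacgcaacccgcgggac
Tap1-Psmb9: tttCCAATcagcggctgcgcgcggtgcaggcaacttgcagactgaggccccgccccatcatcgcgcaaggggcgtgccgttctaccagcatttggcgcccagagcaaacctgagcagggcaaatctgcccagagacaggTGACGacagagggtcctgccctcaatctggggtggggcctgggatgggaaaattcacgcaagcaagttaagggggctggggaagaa

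Both B2m and H2-D1 hold the interferon core and the kappaB motif farther from the start, then TGACG, then the CCAAT box. In B2m they lie 137 bases (interferon core), 126 bases (kappaB), 78 bases (TGACG) and 53 bases (CCAAT box) before the start. In H2-D1 the kappaB motif matches at a pair of overlapping positions, and TGACG lies 101 bases before the start. The stretch before H2-K1, not printed, aligned with that of H2-D1 over 177 columns, of which 161 (91.0%) were identical. The stretch shared by Tap1 and Psmb9 has 1 TGACG, 86 bases before the Tap1 start and 144 bases before that of Psmb9. RefSeq windows of 250 bases before the start were at hand for 9 of the 10 genes, with 2 for H2-K1, and Tap2 had no entry. The H2-K1 windows overlap and hold the same interferon core, kappaB and TGACG sites, and those of Tap1 and Psmb9 overlap as well. The interferon core letters were in a window of 4 of the 9 genes, against 21.3% of all 32851 windows. The kappaB motif was found for 3 of 9, against 3.44% of all windows, TGACG for 5, against 17.8%, and a CCAAT box for 7, against 33.8%. A match of letters is a description of the sequence and no measure of binding.

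None of the 10 genes differed past limma's test (adjusted p under 0.05, over all 24568 genes) in any of the comparisons. Between mutant and WT AECI 0 of 10 passed, where 0.0163% of all genes did, and between mutant and WT AECII 0 of 10 passed, where 0.0122% did. Between AECI and AECII 0 of 10 passed in mutant lungs, where 7.80% of all genes did, and 0 of 10 in WT lungs, where 7.01% did. At an unadjusted p under 0.05 the counts were 0 in mutant against WT AECI, 0 in mutant against WT AECII, 1 (Psmb9) in AECI against AECII of mutant lungs and 0 in WT lungs, where 7.64%, 4.41%, 21.5% and 20.0% of all genes lay below that value. These are RNA levels of sorted populations, in which fewer cells of a type and less RNA per cell cannot be told apart.

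B2m encodes beta-2 microglobulin, the light chain that every classical class I molecule needs. Its signal was 11.68 and 11.92 in mutant AECI, 11.69 and 11.60 in WT AECI, 11.96 and 11.54 in mutant AECII, and 12.01 and 11.63 in WT AECII. All groups overlapped, and the 8 arrays spanned 0.47. The log2 fold change (log2FC) of mutant over WT was 0.16 (95% CI -0.52 to 0.83, limma adjusted p = 0.935) in AECI and -0.07 (-0.75 to 0.60) in AECII. That of AECI over AECII was 0.06 (-0.62 to 0.73) in mutant lungs and -0.17 (-0.85 to 0.50) in WT lungs. B2m was the only one of the 10 genes whose interval stayed within a 2-fold change in each of these comparisons.

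The heavy chains H2-K1 and H2-D1 are the classical class I genes of the mouse, which present peptides to CD8 T cells. H2-K1 had signals of 13.76 and 13.41 in mutant AECI, 13.01 and 13.33 in WT AECI, 13.76 and 14.42 in mutant AECII, and 13.65 and 13.27 in WT AECII. Both mutant arrays lay above both WT arrays in AECI and again in AECII, although in AECII the nearest mutant and WT arrays were 0.11 apart. The log2FC of mutant over WT was 0.41 (95% CI -0.38 to 1.21, adjusted p = 0.816) in AECI and 0.63 (-0.17 to 1.42, adjusted p = 0.998) in AECII. In AECI against AECII it was -0.51 (-1.30 to 0.29) in mutant lungs and -0.29 (-1.09 to 0.50) in WT lungs.

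H2-D1 had signals of 13.91 and 13.53 in mutant AECI, 13.35 and 13.53 in WT AECI, 13.89 and 14.55 in mutant AECII, and 14.07 and 14.03 in WT AECII. Mutant and WT arrays overlapped in both populations, while both WT AECI arrays lay below both WT AECII arrays. Mutant over WT had a log2FC of 0.28 (95% CI -0.46 to 1.02) in AECI and 0.17 (-0.57 to 0.91) in AECII. AECI was lower than AECII on average, by a log2FC of -0.50 (-1.24 to 0.24) in mutant lungs and -0.61 (-1.35 to 0.13, limma adjusted p = 0.353) in WT lungs, and neither difference passed the test.

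H2-T23 encodes Qa-1, a nonclassical heavy chain that shows leader peptides of other class I molecules to the NKG2 receptors of natural killer cells. Its signal was 10.83 and 11.12 in mutant AECI, 11.001 and 10.90 in WT AECI, 11.54 and 11.46 in mutant AECII, and 11.09 and 11.48 in WT AECII. All 4 AECI arrays except mutant AECI replicate 2 were below all 4 AECII arrays, and mutant and WT arrays overlapped in each population. Between mutant and WT the log2FC was 0.03 (95% CI -0.61 to 0.66) in AECI and 0.21 (-0.42 to 0.85) in AECII. That of AECI over AECII was -0.52 (-1.16 to 0.11, limma adjusted p = 0.326) in mutant lungs and -0.34 (-0.97 to 0.30) in WT lungs. Class I heavy chains share much of their sequence, and whether the probes tell them apart was not tested.

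**Figure D1:**
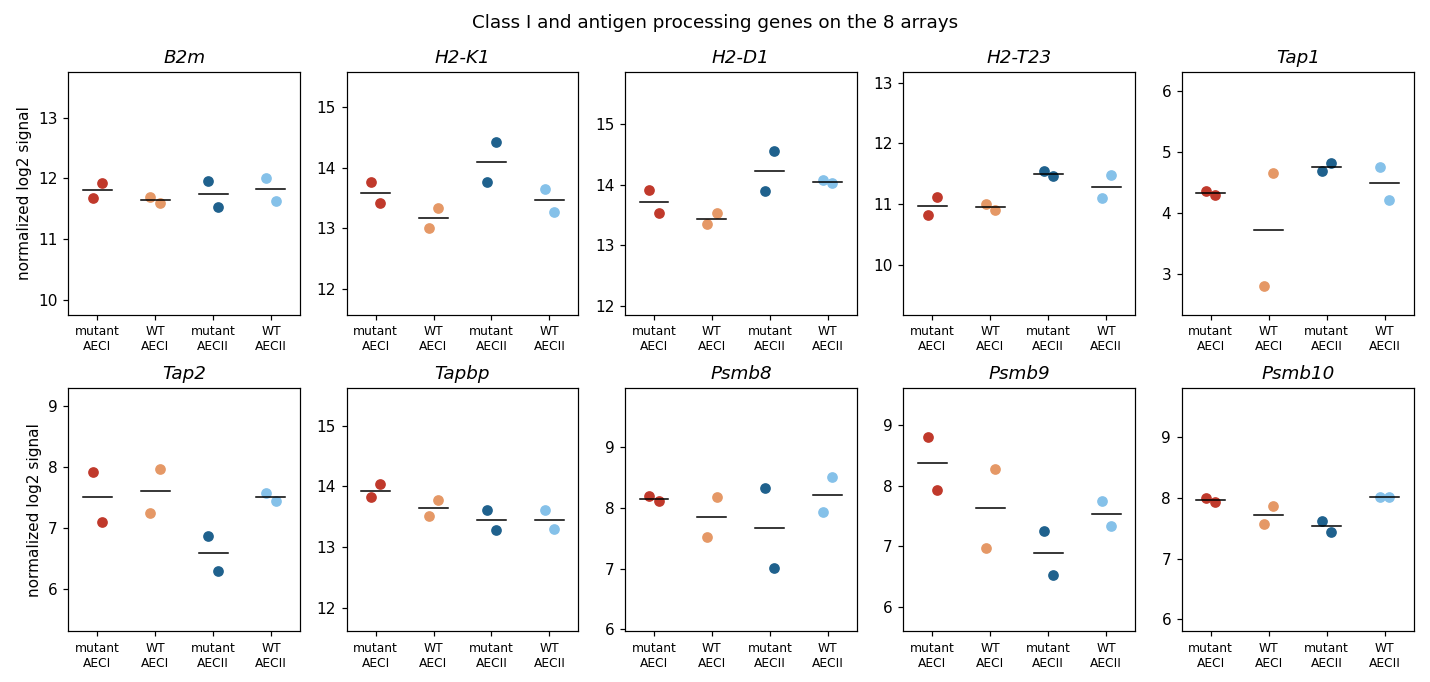
Normalized log2 signal (vertical axis) of the 10 genes on the 8 arrays, with mutant AECI, WT AECI, mutant AECII and WT AECII from left to right, 1 point per array and a line at the mean of the 2 arrays of a group. Every panel spans the same number of log2 units around the gene's own mean: B2m spans 0.47 over the 8 arrays, Psmb9 2.28 and Tap1 2.03, the last because of 1 WT AECI array at 2.80.

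In the plot of signals by array the peptide loading genes had no common pattern. Tap1, a transporter subunit, gave 4.35 and 4.29 in mutant AECI, 2.80 and 4.65 in WT AECI, 4.68 and 4.82 in mutant AECII, and 4.76 and 4.22 in WT AECII. All of these are below the array median of 5.01, so the gene was dim here, and WT AECI replicate 1 was 1.85 lower than its replicate. As mutant over WT, the log2FC was 0.60 (95% CI -0.76 to 1.95) in AECI and 0.27 (-1.09 to 1.62) in AECII, and that of AECI over AECII -0.43 (-1.79 to 0.92) in mutant lungs and -0.76 (-2.12 to 0.59) in WT lungs. These are the widest intervals among the 10 genes.

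Tap2, the other transporter subunit, had signals of 7.91 and 7.09 in mutant AECI, 7.25 and 7.97 in WT AECI, 6.87 and 6.29 in mutant AECII, and 7.57 and 7.45 in WT AECII. The mutant AECII arrays were the lowest of the 8 and did not overlap with WT AECII or with mutant AECI. The log2FC of mutant over WT was -0.11 (95% CI -1.07 to 0.86) in AECI and -0.93 (-1.89 to 0.04) in AECII, with an unadjusted p of 0.057 and an adjusted p of 0.998 in AECII. AECI over AECII gave 0.92 (-0.04 to 1.89, adjusted p = 0.254) in mutant lungs and 0.10 (-0.87 to 1.07) in WT lungs.

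Tapbp, the tapasin gene, had signals of 13.82 and 14.04 in mutant AECI, 13.51 and 13.78 in WT AECI, 13.61 and 13.28 in mutant AECII, and 13.61 and 13.29 in WT AECII. The mutant AECI arrays were the highest pair, and the AECII groups differed by less than 0.02 in their means. Mutant over WT had a log2FC of 0.28 (95% CI -0.38 to 0.94) in AECI and -0.01 (-0.67 to 0.65) in AECII. That of AECI over AECII was 0.49 (-0.17 to 1.15) in mutant lungs and 0.19 (-0.47 to 0.85) in WT lungs.

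The immunoproteasome genes Psmb8, Psmb9 and Psmb10 encode the inducible catalytic subunits LMP7, LMP2 and MECL-1. Psmb8 had signals of 8.19 and 8.11 in mutant AECI, 7.52 and 8.17 in WT AECI, 8.32 and 7.02 in mutant AECII, and 7.93 and 8.51 in WT AECII. Mutant AECII replicate 2 was the lowest of the 8 arrays, 1.30 under its replicate, and mutant overlapped with WT in both populations. Between mutant and WT the log2FC was 0.31 (95% CI -0.84 to 1.45) in AECI and -0.55 (-1.70 to 0.60) in AECII. That of AECI over AECII was 0.48 (-0.66 to 1.63) in mutant lungs and -0.38 (-1.52 to 0.77) in WT lungs.

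Psmb9 had signals of 8.80 and 7.93 in mutant AECI, 6.98 and 8.28 in WT AECI, 7.24 and 6.52 in mutant AECII, and 7.74 and 7.33 in WT AECII. Both mutant AECI arrays lay above both mutant AECII arrays, and both mutant AECII arrays lay below both WT AECII arrays. AECI of mutant lungs had 2.80-fold the signal of AECII (95% CI 1.17 to 6.69, log2FC 1.49 ± 0.53 SE, n = 2 arrays per group), with an unadjusted p of 0.0267 and an adjusted p of 0.162 by limma, the smallest of the 10 genes in that comparison. In WT lungs the same log2FC was 0.09 (-1.17 to 1.35). Mutant over WT gave 0.74 (-0.51 to 2.00) in AECI and -0.65 (-1.91 to 0.60) in AECII.

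Psmb10 varied least of the 3 immunoproteasome genes, with 7.998 and 7.94 in mutant AECI, 7.57 and 7.87 in WT AECI, 7.61 and 7.45 in mutant AECII, and 8.01 and 8.02 in WT AECII. Mutant arrays lay above WT arrays in AECI and below them in AECII, with no overlap in either. Such a reversal, in whichever order, was seen in 4.40% of all genes. Likewise AECI arrays lay above AECII arrays in mutant lungs and below them in WT lungs, a reversal seen in 3.13% of all genes. As mutant over WT, the log2FC was 0.25 (95% CI -0.35 to 0.84, adjusted p = 0.865) in AECI and -0.48 (-1.08 to 0.11, adjusted p = 0.998) in AECII. That of AECI over AECII was 0.44 (-0.15 to 1.03) in mutant lungs and -0.29 (-0.88 to 0.30) in WT lungs.

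**Figure D2:**
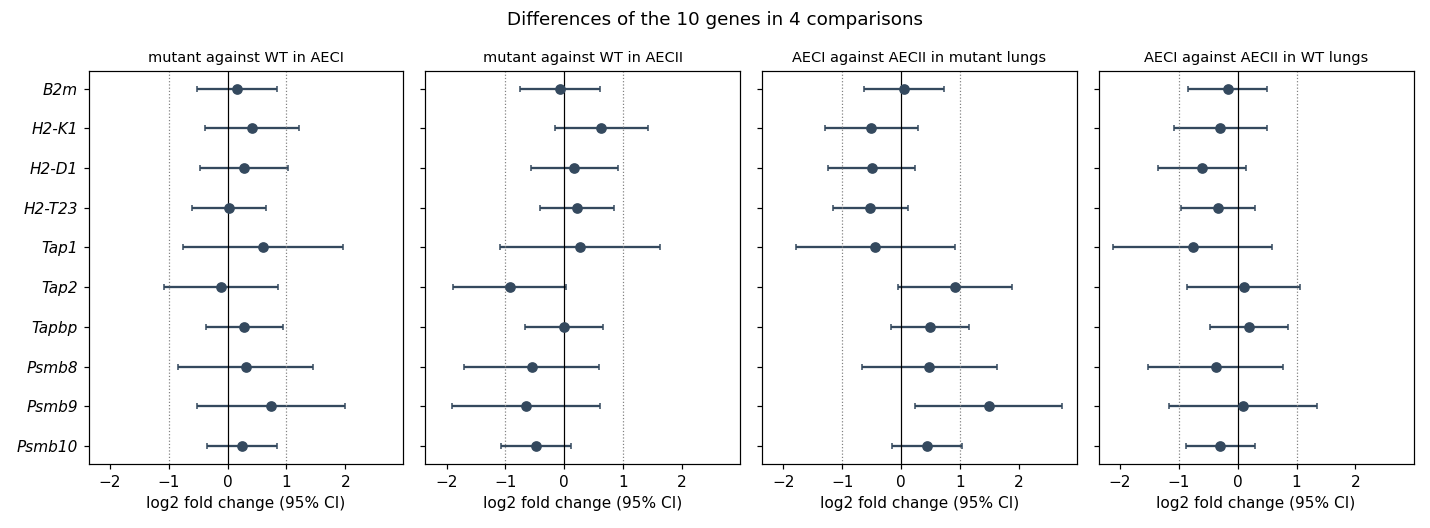
Log2 fold change (horizontal axis) of the 10 genes in mutant against WT AECI, mutant against WT AECII, AECI against AECII of mutant lungs and AECI against AECII of WT lungs, each point with its 95% confidence interval from limma and dotted lines at a 2-fold change. The interval leaves out 0 for 1 point only, Psmb9 in mutant lungs at 1.49 (0.23 to 2.74), and that gene did not pass the adjusted test.

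The differences of mutant from WT, as plotted with their intervals, ran in one direction in AECI for 9 of the 10 genes, with a median log2FC of 0.28 (0.094 without WT AECI replicate 1, 0.41 without WT AECI replicate 2) beside a median of -0.00 over all genes. In AECII 4 were positive and 6 negative, with a median of -0.04 (-0.23 to 0.12 with 1 array left out), also beside -0.00. In AECI both mutant arrays lay above both WT arrays for 3 genes (H2-K1, Tapbp and Psmb10), where 17.7% of all genes did so, and below them for 0, where 17.8% did. In AECII 1 gene (H2-K1) lay above, where 17.6% of all genes did, and 3 (Tap2, Psmb9 and Psmb10) lay below, where 18.2% did. Intervals stayed within a 2-fold change for 4 genes in AECI (B2m, H2-T23, Tapbp and Psmb10) and for 4 in AECII (B2m, H2-D1, H2-T23 and Tapbp), so larger changes of the other genes were not excluded.

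By role, the immunoproteasome genes had positive differences in AECI, 0.25 to 0.74 for 3 of 3, and negative ones in AECII, -0.65 to -0.48 for 3 of 3. Without WT AECI replicate 1 the AECI difference was -0.018 for Psmb8 and 0.093 for Psmb9, and without mutant AECII replicate 2 the AECII difference of Psmb8 was 0.10. The difference between the mutant effects in the 2 populations, tested as an interaction term, was 1.40 (95% CI -0.38 to 3.17) for Psmb9, 0.86 (-0.76 to 2.48) for Psmb8 and 0.73 (-0.11 to 1.57) for Psmb10. None of the 10 genes passed this test, where 0% of all genes did, and 0 had an unadjusted p under 0.05, where 4.71% did. The adjusted p was 0.999 for each of the 3. Mutant AECII replicate 2 was the lowest array for 6 of the 10 genes and the highest for 3, and WT AECI replicate 1 was the lowest for 3. AECI markers were higher in the mutant AECII arrays, with a mean signal of 9.89 and 10.41, against 9.06 and 8.81 in WT AECII. AECII markers were lower in mutant AECI, at 11.01 and 11.23, against 12.06 and 11.90 in WT AECI. Ciliated cell markers were at 5.64 and 5.26 in mutant AECI, against 4.39 and 4.32 in WT AECI. Of these 27 markers 0 passed the adjusted test in mutant against WT. At an unadjusted p under 0.05 the counts were 9 of 11 AECI markers in AECII (all 11 positive, median log2FC 1.23, with 4.41% of all genes below that p), 6 of 10 AECII markers in AECI (all 10 negative, median -0.79, with 7.64%) and 3 of 6 ciliated cell markers in AECI (5 positive, median 1.43). The part of these markers in the values of the 10 genes was not tested.

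Between AECI and AECII the heavy chains among the 10 genes, read from the brightest spot, lay on the negative side. H2-K1, H2-D1 and H2-T23 had log2FC of -0.52 to -0.50 in mutant lungs and -0.61 to -0.29 in WT lungs, and the tapasin gene was positive in both. Of the 10 genes 6 were positive in mutant lungs, with a median of 0.25 (-0.16 without mutant AECII replicate 2), and 3 in WT lungs, with a median of -0.29 (-0.09 without WT AECI replicate 1, -0.45 without WT AECI replicate 2), beside medians over all genes of 0.02 and 0.00. In mutant lungs AECI lay wholly above AECII for 4 genes (Tap2, Tapbp, Psmb9 and Psmb10), where 25.7% of all genes did, and wholly below for 3 (H2-K1, H2-T23 and Tap1), where 26.5% did. In WT lungs it lay above for 0 genes, where 23.4% did, and below for 3 (H2-D1, H2-T23 and Psmb10), where 25.6% did. The ciliated and club cell genes that went with AECII also differed in this comparison, and their part was not tested.

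With both genotypes averaged, a comparison chosen after seeing the data, 0 of the 10 genes passed between AECI and AECII, where 14.8% of all genes did. The smallest adjusted p was that of H2-D1 (log2FC -0.55, 95% CI -1.08 to -0.03, limma adjusted p = 0.161), and this gene passed with a trended and robust prior (0.0186). With both populations averaged, 0 passed between mutant and WT, where 0.0448% of all genes did, and H2-K1 had the smallest p (0.52, -0.04 to 1.08, adjusted p = 0.677).

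Over the 8 arrays, described without a test, H2-K1 and H2-D1 varied together (Pearson r = 0.86), and Tap2, Psmb8, Psmb9 and Psmb10 did so with each other (r = 0.60 to 0.84). Each heavy chain correlated negatively with Tap2 (-0.74 to -0.48) and with Psmb9 (-0.73 to -0.24). The neighbours Tap1 and Psmb9 had r = 0.18, and the r of B2m with the other genes was at most 0.45. Arrays of 1 group and of 1 population share their source in these values.

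Leukocytes are known to carry much immunoproteasome, so their markers were read on the same arrays. The mean of 8 leukocyte markers was 8.36 and 7.67 in mutant AECI, 7.48 and 8.35 in WT AECI, 7.78 and 7.53 in mutant AECII, and 7.62 and 7.34 in WT AECII. In each of the 4 groups the array with the higher mean was also the one with the higher Psmb9 and the higher Tap2. This was not particular to leukocyte markers: the mean of the interferon receptor and kinase genes kept the order of Psmb9 in 4 of 4 groups as well, and those of endothelial, mesenchymal and epithelial markers, cytosolic peptidases and other heavy chains in 3 of 4. Of the 8 markers, Tyrobp and Itgam kept this order in 4 of 4 groups, Fcer1g and Cd3e in 3, Cd68 and Laptm5 in 2, Csf1r in 1 and Ptprc, which encodes the common leukocyte antigen CD45, in 0. Itgam was nearly flat, at 13.76 to 14.20 over the 8 arrays, and its order in mutant AECII rests on 13.96 against 13.95. The share of all genes that keep the order of Psmb9 in 4 of 4 groups was not counted, so these counts have no background beside them. Tyrobp, the adapter DAP12 of myeloid and natural killer cells, gave 7.37 and 3.13 in mutant AECI, 2.99 and 7.11 in WT AECI, 5.93 and 2.95 in mutant AECII, and 4.57 and 3.03 in WT AECII. In mutant AECII it had the widest gap of the 8 markers, while Ptprc, Csf1r, Fcer1g and Cd3e had the opposite order. The order of the mean in that group thus leans on Tyrobp. None of the 8 markers passed the test in any comparison, and their part in the Psmb9 and Tap2 values was not tested.

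For 7 genes a second, dimmer spot was on the array, and 0 of the 17 spots passed the test when each spot was a row of its own. Both spots of a gene had differences of the same sign for 5 of 7 genes in mutant against WT AECI, 4 in mutant against WT AECII, 3 in AECI against AECII of mutant lungs and 5 in WT lungs. In mutant against WT AECI the sign was opposite for H2-K1 (0.41 and -0.08 on the second spot) and H2-T23 (0.03 and -0.55). In AECII it was opposite for B2m (-0.07 and 0.64), H2-T23 (0.21 and -0.09) and Tap2 (-0.93 and 0.81). The second H2-T23 spot, whose accession belongs to the pseudogene H2-T-ps in RefSeq, thus did not follow the first.

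For AECI against AECII of mutant lungs the spots disagreed for B2m (0.06 and -0.44), H2-T23 (-0.52 and 0.23), Psmb9 (1.49 and -0.25) and Tap2 (0.92 and -0.16). In WT lungs they did so for H2-T23 (-0.34 and 0.69) and Psmb9 (0.09 and -0.58 on its second spot). The second Psmb9 spot averaged 3.06, under the 25th percentile of the array (3.30), and the second Tap2 spot 3.66, above that percentile and under the median. Both are dim, and without detection limits it cannot be said whether their opposite signs are signal or background. Both H2-K1 spots were bright, and the second gave 11.65 and 11.80 in mutant AECI, 11.91 and 11.69 in WT AECI, 12.58 and 12.59 in mutant AECII, and 12.30 and 12.48 in WT AECII. All 4 AECI arrays lay below all 4 AECII arrays on it, and the share of all spots that do so was not counted. Within 1 genotype AECI lay wholly below AECII for 26.5% of all genes in mutant lungs and 25.6% in WT lungs. The log2FC on this spot was -0.86 in mutant lungs (unadjusted p = 0.0125, limma adjusted p = 0.111 over all spots) and -0.59 in WT lungs.

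**Figure D3:**
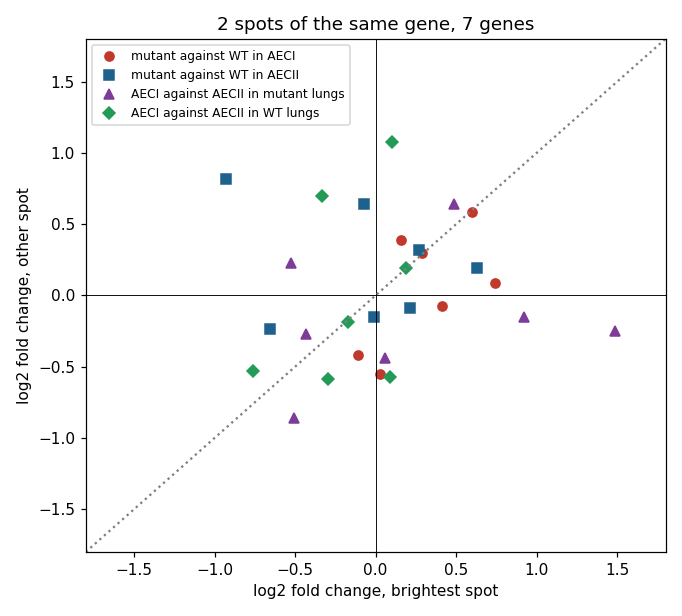
Log2 fold change of the brightest spot of a gene (horizontal axis) against that of its other spot (vertical axis) for the 7 genes with 2 spots, with a symbol for each of 4 comparisons and a dotted line where both would be equal. Points in the upper left and lower right quadrants are spots of 1 gene symbol with opposite signs, 2 of 7 in mutant against WT AECI, 3 in AECII, 4 in AECI against AECII of mutant lungs and 2 in WT lungs. H2-T23, whose second spot has an accession of the pseudogene H2-T-ps, is among them in every comparison.

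Around the 10 genes, the rest of the class I pathway was read from lists of known genes. In mutant against WT no listed gene passed the test in either population. Of 24 other heavy chain genes of the H2 region 0 passed in any comparison. For AECI over AECII 14 were positive and 10 negative in mutant lungs (median log2FC 0.21). In WT lungs 9 were positive and 15 negative (median -0.24). The negative sign of H2-K1, H2-D1 and H2-T23 was thus not that of most other heavy chains in mutant lungs. Among them H2-K2 gave 14.07 and 13.87 in mutant AECI, 13.66 and 13.71 in WT AECI, 14.42 and 14.74 in mutant AECII, and 14.10 and 13.98 in WT AECII. Whether the H2-K2 probe tells its RNA from that of H2-K1 was not tested. H2-K2 was highest on average in mutant AECII and lowest in WT AECI, as was H2-K1 on its brighter spot. On the second H2-K1 spot mutant AECI (11.65 and 11.80) was the lowest on average, not WT AECI (11.91 and 11.69). The nonclassical H2-Q7 was -0.50 in AECI against AECII of mutant lungs and -0.59 in WT lungs, and H2-Q4 0.53 and 0.12. H2-M3, which presents formylated peptides, ranged between 2.74 and 6.61 over the arrays and had a mutant over WT log2FC of 0.80 ± 1.21 (SE, n = 2 arrays per group) in AECI. Of 7 class I-like genes outside the region, 1 was lower in AECI of mutant lungs, where 4.87% of all genes were, and a count of 1 in a list this short cannot be set apart from that share. It was Fcgrt, the neonatal Fc receptor, at a log2FC of -1.32 (adjusted p = 0.0419), against -0.64 (adjusted p = 0.295) in WT lungs. For AECI over AECII all 7 genes were negative in mutant lungs (median -1.19). In WT lungs 5 were negative and 2 positive (median -0.64). At an unadjusted p under 0.05 by limma there were 3 in mutant lungs, where 21.5% of all genes were, and 2 in WT lungs, where 20.0% were.

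Among 10 other genes of peptide loading and folding, 0 passed. The lectin chaperone genes Calr and Canx and the disulphide isomerase gene Pdia3 had log2FC of AECI over AECII of -0.37, -0.75 and -0.64 in mutant lungs and -0.42, -0.74 and -0.57 in WT lungs. Erap1, the trimming peptidase of the endoplasmic reticulum, had -0.33 and -0.87. The constitutive subunits whose places the immunoproteasome takes, Psmb5, Psmb6 and Psmb7, had log2FC of -0.97, -0.31 and -0.18 in mutant lungs and -0.75, -0.40 and -0.27 in WT lungs. Of the 14 constitutive core genes all 14 were negative in mutant lungs (median -0.37) and 13 in WT lungs (median -0.38), yet 0 passed the test. The sign was not particular to the core. Of 18 genes of the regulatory 19S particle of the proteasome, 16 were negative in mutant lungs (median -0.26) and 12 in WT lungs (median -0.13). The 10 loading and folding genes had 8 negative in mutant lungs (median -0.37) and 8 in WT lungs (median -0.50). Psme1, a subunit of the interferon-induced proteasome cap, gave 13.32 and 13.39 in mutant AECI, 13.58 and 13.47 in WT AECI, 14.35 and 14.32 in mutant AECII, and 14.32 and 14.33 in WT AECII. All AECI arrays were below all AECII arrays, and within 1 genotype 26.5% of all genes were so in mutant lungs and 25.6% in WT lungs. The log2FC of Psme1 was -0.98 in mutant lungs (limma adjusted p = 0.053) and -0.80 in WT lungs (adjusted p = 0.103).

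Of 16 transcription regulators of class I genes 1 passed, Irf8, lower in AECI of WT lungs (log2FC -2.74, adjusted p = 0.0265), where 4.14% of all genes were lower, so the count lies near the background. Irf8 had 2.98 and 2.89 on the WT AECI arrays, under the 25th percentile of the array (3.30), so this difference is measured against a dim signal. In mutant lungs its log2FC was -1.58, which did not pass. Nlrc5, the class I transactivator, had signals of 5.99 and 5.50 in mutant AECI, 5.01 and 5.10 in WT AECI, 5.52 and 5.29 in mutant AECII, and 5.65 and 5.52 in WT AECII. Both mutant AECI arrays were above both WT AECI arrays, as for 17.7% of all genes (log2FC 0.69, unadjusted p = 0.042, limma adjusted p = 0.639), and the AECII groups gave -0.18. Irf1 had mutant over WT differences of 0.34 in AECI and 0.29 in AECII, and Rfx5 of -0.54 and -0.08. Ifngr1, the ligand-binding chain of the interferon gamma receptor, had 1.15 in AECI (unadjusted p = 0.018, adjusted p = 0.555) and 0.72 in AECII. In mutant against WT AECI 1 of the 16 regulators and 1 of 11 interferon receptor and kinase genes had an unadjusted p under 0.05. Of all genes 7.64% did, so counts of 1 in lists this short cannot be set apart from that share.

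Of 27 interferon-induced genes 6 were higher in AECI than AECII of mutant lungs, where 2.93% of all genes were, and 0 lower, where 4.87% were. The 4 with the smallest p were Bst2 (log2FC 2.60), Xaf1 (3.02), Ifit2 (3.17) and Isg15 (2.57). In WT lungs 4 were higher, Ifit2 (3.64), Bst2 (2.12), Isg15 (2.25) and Xaf1 (2.19), where 2.87% of all genes were higher, and 1, Rsad2, was lower (-2.05), where 4.14% were. Of 11 receptor and kinase genes 2 passed as higher in AECI of mutant lungs, where 2.93% of all genes did, and 1 as lower, where 4.87% did. In WT lungs 2 passed as higher, where 2.87% did, and 0 as lower, where 4.14% did. Ifnlr1, the interferon lambda receptor of epithelia, was higher in AECI by 2.21 in mutant lungs and 1.92 in WT lungs, and Ifngr2 by 1.74 and 1.59. Ifnar2 was lower in mutant lungs (-1.40, adjusted p = 0.0373) and had -1.10 (adjusted p = 0.0875) in WT lungs. In mutant against WT AECI 15 of the 27 interferon-induced genes were positive and 12 negative, from -1.51 to 3.43 (median 0.05). In AECII 19 were positive and 8 negative (median 0.43).

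**Figure D4:**
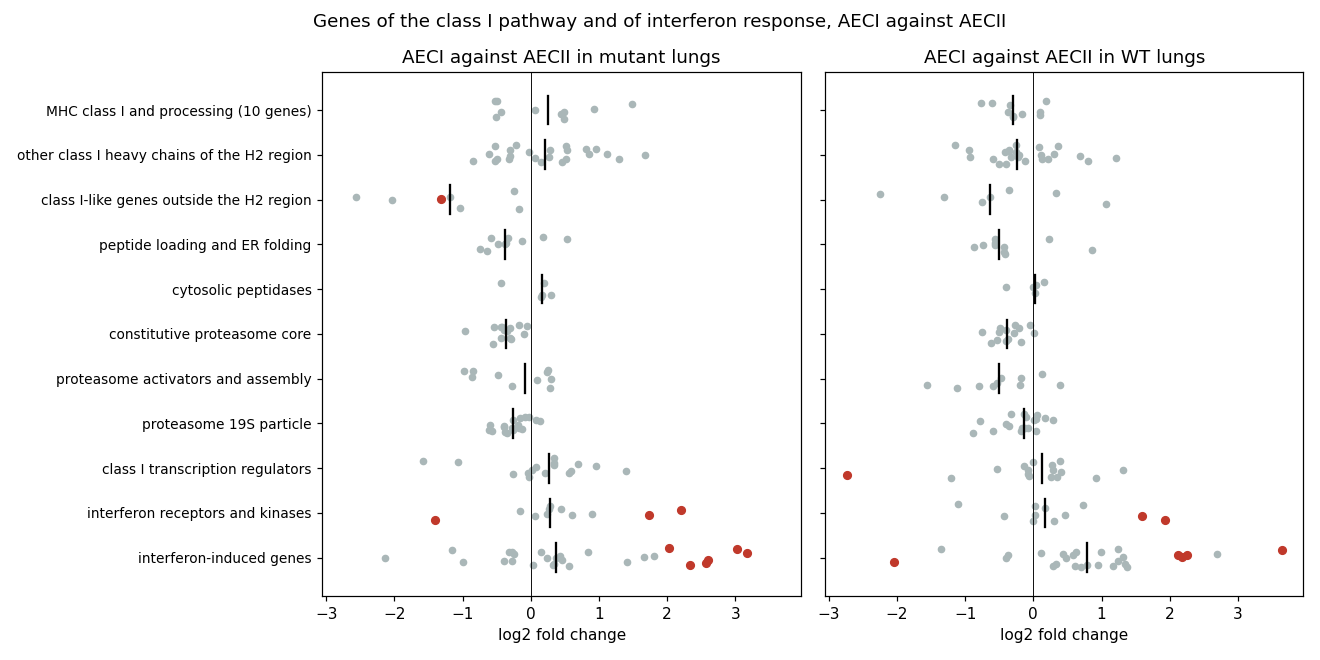
Log2 fold change of AECI over AECII (horizontal axis) in mutant lungs (left) and WT lungs (right) for the 10 genes and for lists of related genes (rows), with 1 point per gene, a vertical bar at the median of a list and red points for genes past limma's test (adjusted p under 0.05). The 10 genes hold 0 red points in both panels, and the interferon-induced list 6 in mutant lungs and 5 in WT lungs.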

How the data were processed

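RNA was extracted with the miRNeasy Micro Kit, amplified with the Ovation PicoSL WTA system and labelled with Cy5, per the labels, on single-colour arrays. The deposited table held log2 signals of 62976 spots that the authors had already normalized between arrays, since all arrays shared their quantiles. The submitters' processing notes name limma, without a version. The background correction, detection limits and slides: not given in the sources used here. The paper at hand describes another experiment and was not used for the methods.

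Of the spots, 43941 had 1 gene symbol, 0 several and 19035 none. By accession 33708 matched 1 RefSeq gene and 1424 symbols were updated. After 57 spots with a missing value were left out, 43884 spots of 24568 genes remained, each gene read from its brightest spot. All 4 group means were fitted with limma 3.58.1 in R 4.3.3 (two-sided, Benjamini-Hochberg over all genes, 4 residual degrees of freedom), so each p uses the spread of all groups. The script was tested on simulated data. Precision is limited by having 2 arrays in a group. The 10 genes and all lists were chosen with earlier results of these data known. Alternatives changed the centring, quantile step, dim-gene filter, spot choice, prior, samples in the fit and replicate block, or left out an array. Named are all 10 genes, up to 4 genes of a list past the test in a comparison, those with the smallest p, and a set of regulators and counterparts; H2-K2 was added after its values were seen. H2-L, H2-D4, H2-Q6, H2-Q9, Nrdc and Psme2 were not analysed here.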

Additional observations from a re-analysis of the deposited data

Results flagged for a closer look

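Psmb10 was the only one of the 10 genes whose mutant arrays moved in opposite directions in the 2 populations without overlap: both lay above both WT arrays in AECI (7.998 and 7.94, against 7.57 and 7.87) and both lay below them in AECII (7.61 and 7.45, against 8.01 and 8.02). The difference of the mutant effects was 0.73 ± 0.35 (SE) on the log2 scale, with an unadjusted p of 0.0775 and a limma adjusted p of 0.999, so it did not pass the test. Of all 24568 genes, 4.40% were separated in opposite directions in this way. AECI and AECII arrays of this gene were also separated in opposite directions in mutant and WT lungs, as were those of 3.13% of all genes.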

How the results depend on the processing

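Under every alternative listed in the methods 0 of the 10 genes passed the test in the 5 comparisons. The lowest adjusted p was 0.226 for mutant against WT AECI (without WT AECI replicate 2), 0.878 for AECII (without mutant AECII replicate 1), 0.0826 for AECI against AECII of mutant lungs (trended and robust prior), 0.0609 in WT lungs (without WT AECI replicate 2) and 0.585 for the difference of the mutant effects (without WT AECI replicate 2). Over all genes, differences between replicates 1 and 2 correlated between groups at -0.07 to 0.03, which cannot exclude that replicate numbers pair some arrays. For replicates 1 and 2 the mean of mesenchymal markers was 5.97 and 8.49 in mutant AECI and 5.87 and 7.58 in WT AECI. It was 7.91 and 5.75 in mutant AECII and 7.71 and 5.95 in WT AECII, the same order in both genotypes. Whether arrays of the same number share a source was not tested. With the replicate number as a block 0 genes passed, the smallest adjusted p being 0.823, 0.999, 0.215, 0.409 and 0.999 in the same order. Without the genes under the median mean signal Tap1 was not tested, leaving 9 genes. For AECI against AECII with both genotypes averaged, 1 gene passed with the trended and robust prior (H2-D1, -0.55, adjusted p = 0.0186) and 1 without WT AECI replicate 2 (Tap1, -1.06, adjusted p = 0.0361), so that leaving out arrays gave 0 to 1.

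Leaving out 1 array, the lone array of its group being assumed to vary like the other groups, moved the median log2FC of AECI over AECII in mutant lungs between -0.16 (without mutant AECII replicate 2) and 0.39, and that of the difference of the mutant effects between 0.11 and 0.66 (without WT AECI replicate 2). Of 785 alternative values of single genes 34 reversed their sign, in 22 of 50 results, and no reversed value had passed the test. With the mean of all spots these were H2-T23 (-0.26) in mutant against WT AECI, B2m (0.29) in AECII, B2m (-0.19) in AECI against AECII of mutant lungs, H2-T23 (0.18) and Psmb9 (-0.24) in WT lungs, and B2m (-0.012) and Tap2 (-0.20) in the difference of the mutant effects. With median centring Tapbp gave 0.025 in mutant against WT AECII. The other 26 came from leaving out an array. In mutant against WT AECI the range was -0.12 to 0.17 for H2-T23, -0.52 to 0.30 for Tap2, -0.33 to 1.52 for Tap1 and -0.018 to 0.64 for Psmb8. In AECII it was -0.28 to 0.14 for B2m, -0.16 to 0.50 for H2-D1, -0.18 to 0.15 for Tapbp, -1.20 to 0.10 for Psmb8 and -0.0032 to 0.54 for Tap1. For AECI against AECII of mutant lungs it was -0.16 to 0.27 for B2m and -0.17 to 1.14 for Psmb8, and in WT lungs -1.69 to 0.16 for Tap1, -0.26 to 0.46 for Tap2, -0.56 to 0.74 for Psmb9 and -0.36 to 0.015 for B2m. For the difference of the mutant effects it was -0.22 to 0.44 for H2-D1, -0.60 to 1.26 for Tap1, -0.54 to 0.12 for H2-K1 and -0.38 to 0.0055 for H2-T23. The cause of these moves was not tested.

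Without detection limits a dim signal, such as that of Tap1 or of the second Psmb9 and Tap2 spots, could not be told from background. Normalization to shared quantiles hides a change in total RNA. With 2 arrays a group the SE of a single comparison was 0.25 to 0.57 over the 10 genes, so a p that missed the threshold leaves differences of the size of the intervals possible.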

Other observations

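The mean standardised profile of the 10 genes was lowest on WT AECI replicate 1 (-0.93) and highest on WT AECII replicate 1 (0.39). Among 12275 genes with a mean signal above the median, those with the profile most like it over the 8 arrays were Klhdc1 (Pearson r = 0.97), Olfr97 (0.94), Mospd2 (0.92), Dennd4c (0.92) and Haus2 (0.91), given as a description without a test. H2-Q1, another heavy chain gene, had 12.12 on mutant AECI replicate 1 and 6.89 on replicate 2, 7.35 and 7.37 in WT AECI, 8.09 and 7.57 in mutant AECII, and 8.73 and 7.85 in WT AECII.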
